A study of Mus musculus with 3 samples.

Results

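The genes described here encode the collagens, laminins and integrins and the proteins that join them in basement membranes. They were chosen by name among the gene symbols of the array platform: collagen chains (Col, number, a, number), laminin chains (Lama, Lamb and Lamc), the nidogens Nid1 and Nid2, the fibulins (Fbln), the integrin chains (Itga and Itgb), and Sparc, Hspg2, Serpinh1, Fn1 and Agrn, leaving out the integrin-binding protein genes Itgb1bp and Itgb3bp. This gave 124 of 25697 probes and 80 of 16593 genes. No probe is listed under Fn1. The cells were mouse embryonic stem cells carrying Hb9-GFP, a green fluorescent protein (GFP) reporter of the motor neuron transcription factor Hb9 (gene Mnx1). All 3 populations came, by the labels, from stem cells kept on feeder cells with 20% serum and turned into motor neurons as embryoid bodies in the presence of retinoic acid and purmorphamine, a Hedgehog pathway agonist. They were sorted on the reporter into GFP high cells (motor neurons, in the labels), GFP low cells and GFP negative cells, and each population has 1 array. The labels do not say which other cells a gate held, and embryoid bodies contain several lineages.

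A basement membrane is a thin sheet of matrix under epithelia, around vessels and at the outer surface of the neural tube. Laminins, each a trimer of an alpha, a beta and a gamma chain, assemble first at the cell surface; type IV collagen forms a second network; nidogens and the proteoglycan perlecan, encoded by Hspg2, link them. Cells hold on to this sheet through integrins, heterodimers of an alpha and a beta chain, and through dystroglycan. In the developing spinal cord, progenitors keep an end-foot on the basement membrane, while newborn motor neurons leave the progenitor zone.

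With 1 array per population no difference has a replicate, a test or a p-value. Signals are given as background-corrected, quantile-normalized log2 values, and each gene is represented by its brightest probe. Signals of different genes come from different probes and are not set against each other. A gene counts as detected on an array where its deposited detection p-value was under 0.01. The only gauge of error the files allow is how far a gene's brightest and next brightest detected probes disagree on a log2 difference. The SD of this disagreement over 2370 genes, scaled down to that of 1 probe by taking both as equally uncertain, is called the between-probe SD. This gauge was 0.33 for GFP high against GFP negative, 0.26 for GFP high against GFP low and 0.29 for GFP low against GFP negative. It does not cover culture, sort, RNA amplification or hybridisation. The arrays were alike in brightness, with 11736, 11727 and 11689 probes detected on the GFP high, GFP low and GFP negative arrays. Because the samples are pools of many cells, fewer cells of a type and less RNA per cell cannot be told apart in any result below.

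Of the 80 genes, 32 were detected on at least 1 array, which is 40% against 52.7% of all 16593 genes, and 19 were detected on all 3. GFP high cells had 20 of them detected, GFP low cells 28 and GFP negative cells 29. Between GFP high and GFP negative cells, 10 of the 80 genes were detected in GFP negative cells alone and 1, Col24a1, in GFP high cells alone, against 564 and 470 of all 16593 genes. Between GFP high and GFP negative cells, 30 genes were detected on either array, and of these 17 were at least 2-fold lower and 1 higher by at least 2-fold in GFP high cells. Over all 8613 genes detected in that comparison, 9.88% were at least 2-fold lower and 6.99% at least 2-fold higher. The median log2 difference was -1.15 over the 30 genes and 0.02 over all genes. A gene detected only where it is bright had to differ, so the same was counted over genes detected on both arrays. Of the 19 genes left, 9 were at least 2-fold lower and 0 at least 2-fold higher, against 8.6% and 6.28% of 7579 genes, and their median was -0.98. With undetected genes set to a lower bound (described with Col4a2), 15 of the 30 were at least 2-fold lower and 0 higher, against 8.65% and 6.11% of all genes. The dimmer members are the less secure ones: with an offset of 50 in place of 16 in the background correction, Nid1, Col2a1, Col23a1, Fbln2, Itga5 and Itgb5 were less than 2-fold lower and Col24a1 less than 2-fold higher. Without normexp these and also Hspg2 and Lamb2, at log2 differences of -0.87 and -0.84, were under 2-fold.

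**Figure D1:**
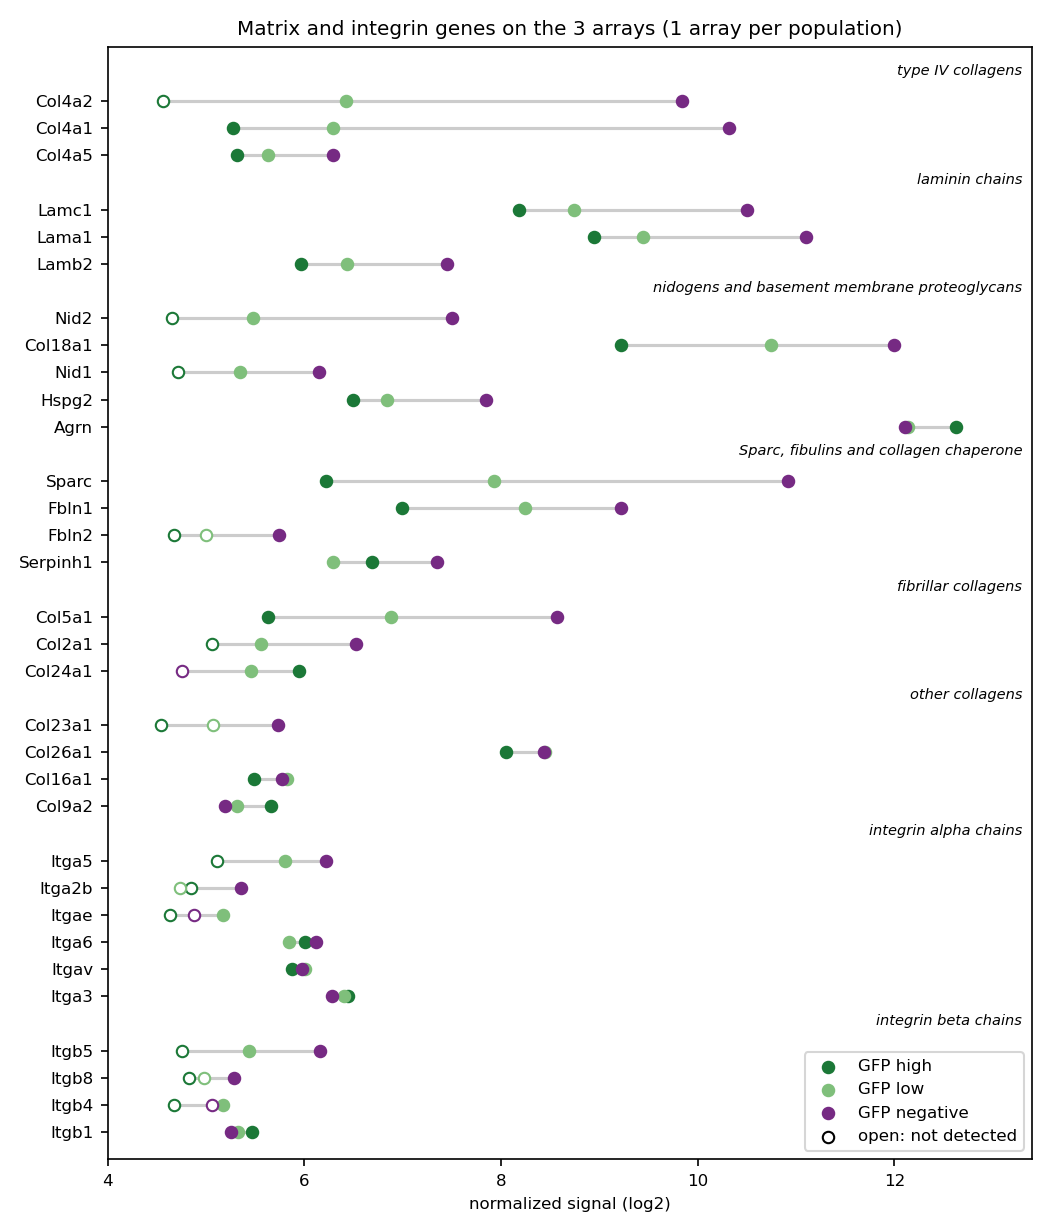
Normalized log2 signal of the 32 genes detected on at least 1 array, by role; each row is 1 gene, each point 1 array (GFP high, GFP low, GFP negative), and open points were not detected. Rows should be read across and not against each other; the points of most matrix genes run from GFP high at the left through GFP low to GFP negative at the right (Col4a1 at 5.28, 6.29 and 10.32), whereas those of Itga3, Itga6, Itgav and Itgb1 lie close together.

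Type IV collagen is the collagen of basement membranes, built from trimers of 6 alpha chains, of which the widespread form combines the products of Col4a1 and Col4a2. Col4a1 and Col4a2 had, with Sparc, the widest ranges over the 3 populations among the 32 genes detected. Their order depended on the background correction: for GFP high against GFP negative cells the log2 differences of Sparc, Col4a1 and Col4a2 were -4.18, -4.17 and -4.04 with an offset of 50, and -3.72, -3.53 and -3.30 without normexp. Col4a1 had a log2 signal of 5.28 in the GFP high cells, 6.29 in GFP low cells and 10.32 in GFP negative cells. The deposited intensities behind these values were 114, 164 and 1372. The gene was detected on all 3 arrays, 33.0-fold lower in GFP high cells relative to GFP negative cells, 2.03-fold lower than in GFP low cells, and 16.3-fold lower in GFP low cells relative to GFP negative cells. Col4a2 had a log2 signal of 4.56 in the GFP high cells, where it was not detected, 6.42 in GFP low cells and 9.84 in GFP negative cells, from deposited intensities of 98.9, 172 and 1005. For a gene not detected on the dimmer array only a bound can be given. The brighter signal is divided by the dim probe's signal or by the lowest signal at which a probe was detected on the dim array, whichever is higher; that lowest signal was 5.13 in GFP high cells, 5.13 in GFP low cells and 5.14 in GFP negative cells on the log2 scale. On that basis Col4a2 was lower by at least 26.2-fold in GFP high cells relative to GFP negative cells and at least 2.46-fold lower than in GFP low cells. Each such bound holds only for the main background correction, with its offset of 16. For Col4a2 against GFP negative cells it exceeds the differences with an offset of 50 and without normexp given above. Col4a2 was 10.7-fold lower in GFP low cells relative to GFP negative cells. Both genes thus stood near background in GFP high cells, slightly above it in GFP low cells, and far above it in GFP negative cells.

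Col4a1 and Col4a2 are neighbours on mouse chromosome 8 and are transcribed away from each other. Their RefSeq promoter windows, 250 bases before to 50 after the annotated start, are shown because these genes and Sparc had the largest differences among those described here, together with the windows of Sparc and of Col4a5, the type IV chain that differed less. Of the 80 genes, 61 had a window in the RefSeq promoter table. Capitals mark matches, on either strand, to a CCAAT box (CCAAT or ATTGG) and to a GC box (GGGCGG or CCGCCC).

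Col4a1, GRCm38.p6, chr8:11312777-11313076, minus strand: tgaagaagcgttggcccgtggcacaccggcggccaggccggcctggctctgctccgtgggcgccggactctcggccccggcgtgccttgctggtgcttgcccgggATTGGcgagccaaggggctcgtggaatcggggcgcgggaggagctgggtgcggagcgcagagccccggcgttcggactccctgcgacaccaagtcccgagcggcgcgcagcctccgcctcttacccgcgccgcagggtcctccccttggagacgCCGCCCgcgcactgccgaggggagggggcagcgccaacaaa

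Col4a2, GRCm38.p6, chr8:11312555-11312854, plus strand: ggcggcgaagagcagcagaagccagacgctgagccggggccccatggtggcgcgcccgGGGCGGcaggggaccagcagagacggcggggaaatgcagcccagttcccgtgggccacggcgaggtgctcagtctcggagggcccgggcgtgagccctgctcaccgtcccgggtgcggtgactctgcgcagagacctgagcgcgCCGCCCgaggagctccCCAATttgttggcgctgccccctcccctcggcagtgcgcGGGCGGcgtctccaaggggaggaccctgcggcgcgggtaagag

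Col4a5, GRCm38.p6, chrX:141475169-141475468, plus strand: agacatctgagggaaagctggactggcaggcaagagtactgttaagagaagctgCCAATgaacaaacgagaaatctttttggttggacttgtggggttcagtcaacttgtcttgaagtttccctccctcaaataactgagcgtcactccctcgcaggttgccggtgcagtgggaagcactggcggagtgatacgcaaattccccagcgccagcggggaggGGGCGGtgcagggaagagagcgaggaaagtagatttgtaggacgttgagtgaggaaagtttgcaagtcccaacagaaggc

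Sparc, GRCm38.p6, chr11:55420031-55420330, minus strand: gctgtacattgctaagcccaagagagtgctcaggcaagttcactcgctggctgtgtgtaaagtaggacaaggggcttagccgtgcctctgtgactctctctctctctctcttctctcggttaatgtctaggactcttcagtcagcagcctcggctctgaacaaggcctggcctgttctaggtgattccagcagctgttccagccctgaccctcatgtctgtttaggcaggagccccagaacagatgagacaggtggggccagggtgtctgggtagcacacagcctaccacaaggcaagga

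The Col4a1 and Col4a2 windows overlapped by 78 bases. Col4a1 held 1 CCAAT box, at bases 106 to 110 of its window, and 1 GC box. Col4a2 held 1 CCAAT box, at bases 219 to 223, and 3 GC boxes. The GC box at bases 260 to 265 of the Col4a1 window and that at bases 258 to 263 of the Col4a2 window are the same 6 bases, read from opposite strands. GC content was 74.0% for Col4a1, 73.7% for Col4a2, 52.7% for Col4a5 and 55.3% for Sparc. Col4a5 held 1 match to each motif and Sparc held neither. A TATA box (TATAAA or TTTATA) and a GATA motif (AGATAA or TTATCT), also searched on both strands, were in none of the 4 windows. Of 32851 windows in the table, 37.4% held a CCAAT box, 35.7% a GC box, 13.6% a TATA box and 11.2% a GATA motif, and none of the searched motifs overlapped another in the 4 windows. Among the 70 windows of genes described here, 20 held a CCAAT box, 40 a GC box, 5 a TATA box and 3 a GATA motif. A match is a description of these letters and not a site of binding.

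The type IV genes lie in 3 such pairs of neighbours. Of the X-linked pair, Col4a5 was detected on all 3 arrays with a log2 signal of 5.31 in GFP high cells, 5.63 in GFP low cells and 6.29 in GFP negative cells. It was 1.97-fold lower in GFP high cells relative to GFP negative cells, just short of 2-fold, in the same direction as Col4a1 and Col4a2 and smaller. Its partner Col4a6 was not detected on any array by any of its probes. The pair on chromosome 1, Col4a3 and Col4a4, best known from the glomerular basement membrane of the kidney, was not detected on any array.

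Laminin chains showed the same direction at smaller size. The array held probes for 8 chains, of which Lama1, Lamb2 and Lamc1 were detected, each on all 3 arrays. Lama1 encodes the alpha chain of the early embryonic laminin and had a log2 signal of 8.94 in the GFP high cells, 9.45 in GFP low cells and 11.11 in GFP negative cells. Lamc1, the gamma chain shared by most laminins, had 8.19 in GFP high cells, 8.75 in GFP low cells and 10.50 in GFP negative cells. Lamb2, a beta chain prominent at synapses and in the kidney, had 5.96 in GFP high cells, 6.43 in GFP low cells and 7.45 in GFP negative cells. All 3 were lowest in GFP high cells, next in GFP low cells and highest in GFP negative cells. They were lower in GFP high cells relative to GFP negative cells by 4.49-fold for Lama1, 4.96-fold for Lamc1 and 2.80-fold for Lamb2. In the step between GFP high and GFP low cells they were 1.42-fold, 1.47-fold and 1.38-fold lower, short of 2-fold. In the step between GFP low and GFP negative cells they were 3.16-fold, 3.37-fold and 2.03-fold lower. Unlike Col4a2, Lama1 and Lamc1 remained detected in GFP high cells with deposited intensities of 526 and 352, against 2276 and 1541 in GFP negative cells. The probe for Lamb1, the beta chain usually paired with Lama1 and Lamc1, was not detected on any array, nor were those for Lama2, Lama4, Lamb3 and Lamc3.

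Among the linkers and proteoglycans, 4 of 5 detected genes were lower by at least 2-fold in GFP high cells relative to GFP negative cells and agrin was not. Nid2, 1 of 2 nidogens that bridge laminin and type IV collagen, had a log2 signal of 4.65 in the GFP high cells, where it was not detected, 5.47 in GFP low cells and 7.50 in GFP negative cells. It was lower by at least 5.19-fold in GFP high cells relative to GFP negative cells and 4.07-fold lower in GFP low cells relative to GFP negative cells. Nid1 had 4.71 in GFP high cells, again not detected, 5.35 in GFP low cells and 6.14 in GFP negative cells, lower by at least 2.03-fold in GFP high cells relative to GFP negative cells. Both nidogens were thus undetected in GFP high cells and brightest in GFP negative cells. Hspg2, which encodes perlecan, had 6.49 in GFP high cells, 6.84 in GFP low cells and 7.85 in GFP negative cells. It was 2.56-fold lower in GFP high cells relative to GFP negative cells. Col18a1, a basement membrane collagen that carries heparan sulfate and whose tail can be released as endostatin, had 9.22 in GFP high cells, 10.75 in GFP low cells and 12.00 in GFP negative cells. It was 6.86-fold lower in GFP high cells relative to GFP negative cells, 2.88-fold lower than in GFP low cells, and 2.38-fold lower in GFP low cells relative to GFP negative cells. For Col18a1 the steps on either side of GFP low cells were close in size, unlike those of Col4a1. A dimmer Col18a1 probe gave log2 differences of -1.92 for GFP high against GFP negative cells, -0.76 for GFP high against GFP low cells and -1.16 for GFP low against GFP negative cells, and the third was not detected. Col15a1, its closest relative, was not detected.

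Agrn, the proteoglycan that motor axons deposit at the neuromuscular junction to cluster acetylcholine receptors, went the other way. Its log2 signal was 12.63 in GFP high cells, 12.14 in GFP low cells and 12.11 in GFP negative cells, from deposited intensities of 5954, 4732 and 4669. It was 1.43-fold higher in GFP high cells relative to GFP negative cells and 1.40-fold above GFP low cells. These log2 differences of 0.52 and 0.49 exceed the between-probe SDs of 0.33 and 0.26 and stay under 2-fold. The difference between GFP low and GFP negative cells was 0.03, inside the SD of 0.29. Only the neuronal splice form of agrin clusters receptors strongly, and which forms the probe reads was not examined.

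Sparc, a collagen-binding matrix glycoprotein abundant in basement membranes of the early embryo, followed the type IV collagens. Its log2 signal was 6.22 in GFP high cells, 7.93 in GFP low cells and 10.92 in GFP negative cells, and it was detected on all 3 arrays. It was 26-fold lower in GFP high cells relative to GFP negative cells, 3.28-fold lower than in GFP low cells, and 7.94-fold lower in GFP low cells relative to GFP negative cells. A second probe gave log2 differences of -4.24, -1.05 and -3.19 in these comparisons, against -4.70, -1.71 and -2.99 for the first. Both probes thus placed the populations in the same order. Fbln1, a fibulin that binds laminin and nidogen, had 7.0 in GFP high cells, 8.25 in GFP low cells and 9.22 in GFP negative cells. By this probe it was 4.66-fold lower in GFP high cells relative to GFP negative cells; a dimmer probe, detected in GFP negative cells only, gave a log2 difference of -0.89 against -2.22. Fbln2 was detected in GFP negative cells only, with 4.67 in GFP high cells, 5.0 in GFP low cells and 5.74 in GFP negative cells, lower by at least 1.53-fold in GFP high cells. Fbln5 and Fbln7 were not detected.

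Serpinh1, which encodes the chaperone HSP47 of procollagen folding, did not follow the same order. It had a log2 signal of 6.68 in the GFP high cells, 6.29 in GFP low cells and 7.35 in GFP negative cells. It was 1.59-fold lower in GFP high cells relative to GFP negative cells but 1.31-fold higher than in GFP low cells, and 2.09-fold lower in GFP low cells relative to GFP negative cells. GFP low cells were thus the lowest of the 3 for this gene, by log2 differences larger than the between-probe SD.

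Fibrillar collagens, which form the fibres of interstitial matrix, were mostly absent from the detected genes. Of 11 such genes, 3 were detected. Col5a1, a chain that starts fibre assembly, had 5.63 in GFP high cells, 6.88 in GFP low cells and 8.57 in GFP negative cells and was 7.71-fold lower in GFP high cells relative to GFP negative cells. It was 2.38-fold lower in GFP high cells relative to GFP low cells. Col2a1, the cartilage collagen that is also expressed in notochord and early neuroepithelium, had 5.06 in GFP high cells, where it was not detected, 5.56 in GFP low cells and 6.52 in GFP negative cells. It was lower by at least 2.63-fold in GFP high cells relative to GFP negative cells, and a second probe gave a log2 difference of -0.76 against -1.46, with GFP low and GFP negative cells apart by -0.02. Col24a1, a rarer fibrillar chain, ran in the opposite order, with 5.94 in GFP high cells, 5.46 in GFP low cells and 4.76 in GFP negative cells, where it was not detected. It was higher by at least 1.75-fold in GFP high cells relative to GFP negative cells, with a second detected probe at a log2 difference of 0.73 against 1.18. By that second probe GFP low cells were the highest, with 5.72 against 5.37 in GFP high cells and 4.64 in GFP negative cells. Col1a1, Col1a2 and Col3a1, the main collagens of fibroblasts, were not detected on any array, nor were Col5a2, Col5a3, Col11a1, Col11a2 and Col27a1.

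Of 18 further collagen genes, 4 were detected. Col26a1, a little-studied secreted collagen, had 8.05 in GFP high cells, 8.45 in GFP low cells and 8.44 in GFP negative cells. Col16a1, a collagen that sits on the surface of other fibres, had 5.48 in GFP high cells, 5.82 in GFP low cells and 5.77 in GFP negative cells. For both, GFP high cells lay slightly below GFP low and GFP negative cells, by 1.31-fold and 1.22-fold against GFP negative cells, while the other populations were apart by less than the between-probe SD. The Col16a1 difference from GFP negative cells, -0.29 on the log2 scale, was also inside the SD of 0.33. Col9a2, a chain of a cartilage collagen, was 1.39-fold higher in GFP high cells relative to GFP negative cells, with 5.66 in GFP high cells, 5.31 in GFP low cells and 5.19 in GFP negative cells. Col23a1, a transmembrane collagen, was detected in GFP negative cells only, with 4.54 in GFP high cells, 5.07 in GFP low cells and 5.73 in GFP negative cells, and was lower by at least 1.52-fold in GFP high cells. Col6a1, Col6a2, Col6a6, Col7a1, Col8a2, Col9a1, Col9a3, Col10a1, Col13a1, Col14a1, Col17a1, Col19a1, Col25a1 and Col28a1 were not detected.

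Integrin chains had smaller differences in the median than the matrix genes. Of 25 integrin genes, 10 were detected on any array, and among the 8 detected in GFP high or GFP negative cells 2 were lower by at least 2-fold in GFP high cells and 0 higher, against 9.88% and 6.99% of all genes. Their median log2 difference was -0.28, against -1.45 for the 22 detected genes of the matrix. The detected integrins were all dim, the brightest being Itga3 at 6.45 in GFP high cells, whereas matrix genes reached 12.63 (Agrn in GFP high cells). The offset understates folds of dim genes, and its part in this contrast was not tested. Itga5, the alpha chain of the fibronectin receptor, had 5.11 in GFP high cells, where it was not detected, 5.80 in GFP low cells and 6.22 in GFP negative cells, lower by at least 2.14-fold in GFP high cells relative to GFP negative cells. Itgb5, a beta chain of a vitronectin receptor, had 4.76 in GFP high cells, not detected, 5.43 in GFP low cells and 6.16 in GFP negative cells, lower by at least 2.05-fold in GFP high cells relative to GFP negative cells. Both were undetected in GFP high cells and brightest in GFP negative cells.

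The chains of the main laminin receptors were close to level. Itga6, an alpha chain of laminin receptors, had 6.01 in GFP high cells, 5.84 in GFP low cells and 6.12 in GFP negative cells. Itga3, another such chain, had 6.45 in GFP high cells, 6.4 in GFP low cells and 6.28 in GFP negative cells. Itgb1, the beta chain with which both pair, had 5.46 in GFP high cells, 5.32 in GFP low cells and 5.26 in GFP negative cells. Itgav, the alpha chain of vitronectin receptors, had 5.88 in GFP high cells, 6.01 in GFP low cells and 5.98 in GFP negative cells. By these probes every difference between populations was inside the between-probe SD of its comparison for the 4 chains. A second, dimmer Itgb1 probe, detected on 1 array, had 4.81 in GFP high cells, 5.21 in GFP low cells and 4.71 in GFP negative cells. Its log2 differences of -0.40 for GFP high against GFP low cells and 0.50 for GFP low against GFP negative cells were outside the SDs of 0.26 and 0.29, so the Itgb1 probes disagreed on GFP low cells. They lie near the dim end of the scale, where the offset draws folds toward 1, so a small difference may be missed. The remaining detected chains were each seen on 1 array alone, Itga2b, a platelet and megakaryocyte chain, and Itgb8 in GFP negative cells, and Itgae and Itgb4, the beta chain of hemidesmosomes, in GFP low cells, all within 2-fold. Itga1, Itga2, Itga4, Itga7, Itga9, Itga11, Itgb3, Itgb6, Itgb7, Itgbl1 and the leukocyte chains Itgad, Itgam, Itgax, Itgb2 and Itgb2l were not detected.

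**Figure D2:**
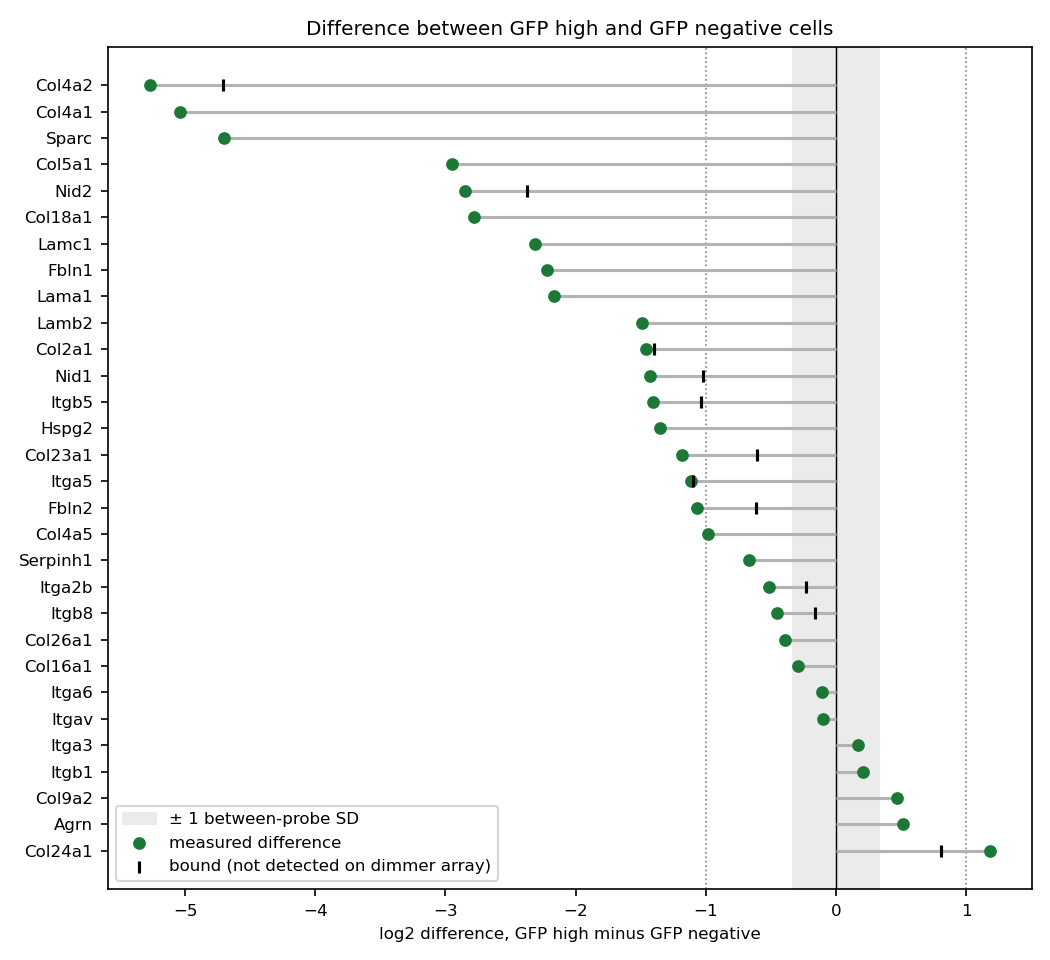
Log2 difference, GFP high minus GFP negative, for the 30 genes detected on either array; points are measured differences, ticks are bounds where the dimmer array did not detect the gene, dotted lines mark 2-fold and the grey band is ± 1 between-probe SD (0.33). Col4a2, Col4a1 and Sparc lie below -4.5, and 17 points lie at or beyond -1.

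**Figure D3:**
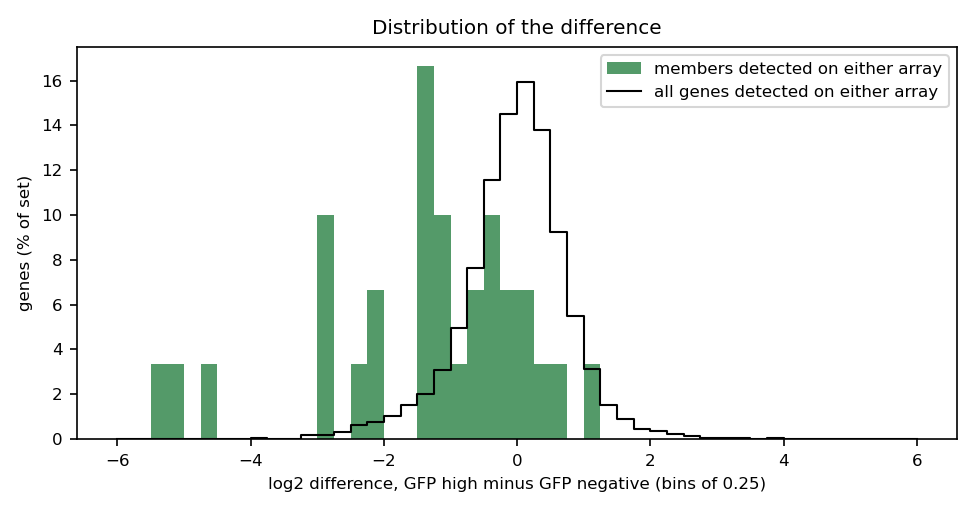
Share of genes in each bin of 0.25 of the log2 difference, GFP high minus GFP negative, for the 30 genes described here (bars) and all 8613 genes detected in that comparison (line). The line centres on 0.02 and the bars have their median at -1.15.

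GFP low cells lay between the other populations for most of these genes, and where they lay differed from gene to gene. Of the 32 detected genes, 19 were lowest in GFP high, next in GFP low and highest in GFP negative cells, or 59.4% against 29.0% of 8751 detected genes. The opposite order held for 5 of the 32, against 2637 of the 8751, and neither order for 8, against 3572 of the 8751. The 5 were Agrn, Col24a1, Col9a2, Itga3 and Itgb1, and by these probes every difference of Itga3 and Itgb1 was inside the between-probe SD. The second probes of Col24a1 and Itgb1 were instead highest in GFP low cells, and the Itgb1 log2 difference between GFP high and GFP low cells, 0.14, was -0.13 with its probes averaged. Between GFP high and GFP low cells, 28 genes were detected, 6 lower by at least 2-fold in GFP high cells and 0 higher, against 4.17% and 1.1% of all genes. The 6 were Col4a1, Col4a2, Sparc, Col18a1, Fbln1 and Col5a1. Over the 20 genes detected on both of these arrays, 5 were at least 2-fold lower and 0 higher, against 3.66% and 0.961% of all genes so detected. With undetected genes at their bound, 6 of the 28 were lower and 0 higher, against 3.65% and 0.937%. Between GFP low and GFP negative cells, all 32 were detected, 11 at least 2-fold lower in GFP low cells and 0 higher, against 2.68% and 3.37% of all genes. The 11 were Col4a1, Col4a2, Sparc, Nid2, Col5a1, Lamc1, Lama1, Col18a1, Serpinh1, Lamb2 and Hspg2, and all 11 were among the 25 genes detected on both arrays, against 2.15% lower and 2.95% higher over all genes so detected. At the bound 11 were again lower and 0 higher, against 2.2% and 2.92%. With an offset of 50, Col4a1 and Col5a1 between GFP high and GFP low cells and Hspg2, Lamb2 and Serpinh1 between GFP low and GFP negative cells were under 2-fold. With probes of a gene averaged, Col18a1 was under 2-fold in both of these comparisons and Fbln1 in the first. These comparisons share arrays with each other and with that of GFP high and GFP negative cells.

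On the linear scale of corrected signal, the place of GFP low cells can be given as a percentage of the way from GFP high to GFP negative cells. It was 3.21% for Col4a1, 6.97% for Col4a2 and 9.10% for Sparc. For Lamc1, Lama1 and Nid2 it was 12.0%, 12.1% and 12.4%. For these 6 genes GFP low cells stood nearer to GFP high than to GFP negative cells on this linear scale. Col4a1, Col4a2 and Sparc were still 2.03-fold, at least 2.46-fold and 3.28-fold lower in GFP high cells than in GFP low cells. Col4a2 and Nid2 were not detected in GFP high cells, so the starting point of their percentages is a background value. It was 32.1% for Col18a1, 37.7% for Fbln1 and 53.0% for Itga5. Over the 17 genes lower by at least 2-fold in GFP high cells relative to GFP negative cells, the median was 21.2%, against a median of 38.1% and quartiles of 23.9% and 52.9% over all 851 such genes. For the same place on the log2 scale, this percentage falls by construction as the fold grows. The 17 genes include the large folds of Col4a1, Col4a2 and Sparc, so part of this contrast may come from the measure. The larger log2 step was that between GFP low and GFP negative cells in 14 of the 17, against 390, or 45.8%, of the 851. In the authors' deposited value table the percentages were 3.39% for Col4a1, 7.03% for Col4a2 and 9.14% for Sparc, and 32.5% for Col18a1. With 1 array per population these positions carry no replicate error.

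**Figure D4:**
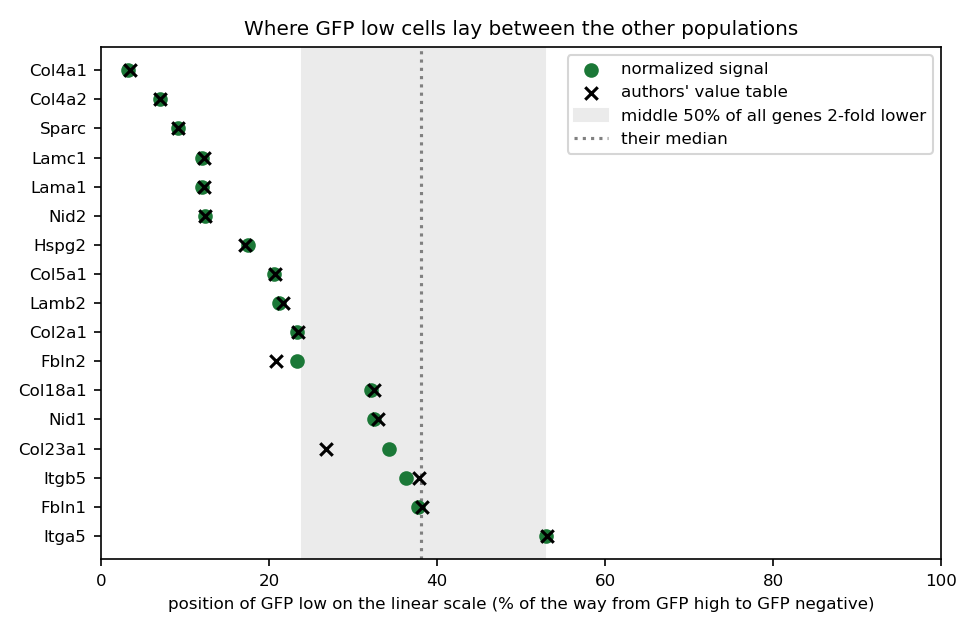
Place of GFP low cells on the linear signal scale, in percent of the way from GFP high to GFP negative cells, for the 17 genes lower by at least 2-fold in GFP high cells relative to GFP negative cells, from normalized signals (points) and from the authors' value table (crosses). The band holds the middle 50% of all 851 genes so lower; Col4a1 is lowest at 3.21% and Itga5 highest at 53.0%.

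Genes that make, crosslink or read this matrix were taken from lists of their own, whose counts stand against the 9.88% lower and 6.99% higher of all genes. Of 20 detected genes of collagen processing and crosslinking, 4 were lower by at least 2-fold in GFP high cells relative to GFP negative cells and 1 higher, with a median log2 difference of -0.35. With undetected genes at their bound 3 were lower and 0 higher, against 8.65% and 6.11% of all genes. Tgm2, a crosslinking transglutaminase, was 2.75-fold lower, with a log2 signal of 5.86 in GFP high cells, 6.34 in GFP low cells and 7.32 in GFP negative cells. Crtap, part of the prolyl 3-hydroxylation complex, was 2.66-fold lower, with 6.17 in GFP high cells, 6.74 in GFP low cells and 7.58 in GFP negative cells. Pcolce, an enhancer of procollagen cleavage, was at least 1.95-fold higher, detected only in GFP high cells. Pxdn, the peroxidase that crosslinks type IV collagen, was also detected only in GFP high cells and was at least 1.38-fold higher than in GFP negative cells.

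Of 12 detected genes of the integrin adhesion complex, 1 was lower by at least 2-fold in GFP high cells relative to GFP negative cells and 0 higher, with a median of -0.11, so that the share lower was close to that of all genes. Actn1, which crosslinks actin at adhesions, was 2.24-fold lower, and Src, the adhesion kinase, 1.31-fold lower. Bcar1, an adhesion docking protein, was 1.69-fold higher, and Vasp, an actin regulator, at least 1.24-fold higher. Of 9 detected laminin and matrix receptors other than integrins, 3 were lower and 1 higher, with a median of 0.00. The syndecans split: Sdc2 was 3.66-fold lower and Sdc4 at least 2.52-fold lower, while Sdc3, the neuronal syndecan, was 2.27-fold higher in GFP high cells relative to GFP negative cells. Sdc3 had 9.21 in GFP high cells, 8.91 in GFP low cells and 8.02 in GFP negative cells. Sdc1, an epithelial syndecan detected only in GFP high cells, was at least 1.23-fold higher. Lrp4, the agrin receptor on muscle, was 2.62-fold lower. Dag1, which encodes dystroglycan, had 8.90 in GFP high cells, 8.47 in GFP low cells and 8.90 in GFP negative cells.

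Several marker lists of other cell types moved with the matrix genes, and their part in the result was not tested. Counts on these lists stand against the 9.88% lower and 6.99% higher of all genes, or 8.65% and 6.11% with undetected genes at their bound. Of 10 detected extraembryonic endoderm markers, 7 were lower by at least 2-fold in GFP high cells relative to GFP negative cells and 0 higher, with a median of -1.62. At the bound 6 were lower and 0 higher. Their summed corrected signal was 181 in GFP high cells, 282 in GFP low cells and 1213 in GFP negative cells. Dab2 and Gata6, both used to mark primitive endoderm, led the list at least 12.6-fold and at least 5.74-fold lower, whereas Gata4, Foxa2, Afp, Apoa1, Plat and Thbd were not detected on any array. Amn and Hnf4a went the other way: Amn was detected only in GFP high cells, at least 1.40-fold higher than in GFP negative cells, and Hnf4a in GFP high and GFP low cells, where its GFP high signal was at least 1.26-fold that of GFP negative cells. Dab2 had a log2 signal of 4.62 in the GFP high cells, 5.80 in GFP low cells and 8.78 in GFP negative cells, the same order as Col4a2. The 4 detected primitive erythroid genes, the globins Hbb-y, Hbb-bh1, Hba-x and Hba-a1, some of which have near-identical copies, were all at least 2-fold lower, with a summed signal of 21.8, 38.3 and 1296 in GFP high, GFP low and GFP negative cells. Alas2, the erythroid enzyme of heme synthesis, and Klf1, an erythroid transcription factor, were not detected.

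Of 3 detected endothelial markers (Flt1, Esam and Egfl7), 3 were lower by at least 2-fold in GFP high cells relative to GFP negative cells, with a summed signal of 518, 830 and 1229 in GFP high, GFP low and GFP negative cells. At the bound 2 of them were, with Flt1 lower by at least 1.63-fold. The defining endothelial genes Pecam1, Cdh5, Kdr, Tek and Tie1 were not detected on any array. Of 13 fibroblast and feeder markers, 4 were detected, 2 of them lower by at least 2-fold in GFP high cells, with a summed signal of 2186, 2952 and 3708 that is mostly that of Vim, which neural progenitors also express. The 2 were Pdgfra, lower by at least 3.15-fold, and Acta2, lower by at least 2.14-fold, both detected only in GFP negative cells. Twist1 and Vim were lower by less than 2-fold. Thy1, Tagln, Postn, Dcn, Lum and Pdgfrb were not detected, nor were the collagen genes Col1a1, Col1a2 and Col3a1. Radial glia and neural progenitor markers were at least 2-fold lower in 8 of 8 detected genes, with a median of -1.61 and a summed signal of 2443 in GFP high cells, 6062 in GFP low cells and 12158 in GFP negative cells. At the bound 7 were, with Fabp7 lower by at least 1.39-fold. Pax6, also on this list, was not detected on any array. By these sums the GFP low value lay further from GFP high in this list than in the endoderm and erythroid lists. A sum weighs its brightest genes most, such as Hes5 here, and single genes of the lists overlapped. Nes of this list had 9.85 in GFP high cells, 10.05 in GFP low cells and 11.23 in GFP negative cells. Pth1r of the endoderm list had 5.82, 6.87 and 8.10 in the same order. The motor neuron list ran in the opposite direction, with 7 of 7 detected genes higher by at least 2-fold in GFP high cells relative to GFP negative cells and a summed signal of 13293, 1358 and 525 in GFP high, GFP low and GFP negative cells. At the bound 6 were, with Isl2 higher by at least 1.46-fold. Slc5a7, also on this list, was not detected. Of 5 floor plate markers, Foxa1 alone was detected, in GFP high cells, by at least 1.10-fold over GFP negative cells.

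**Figure D5:**
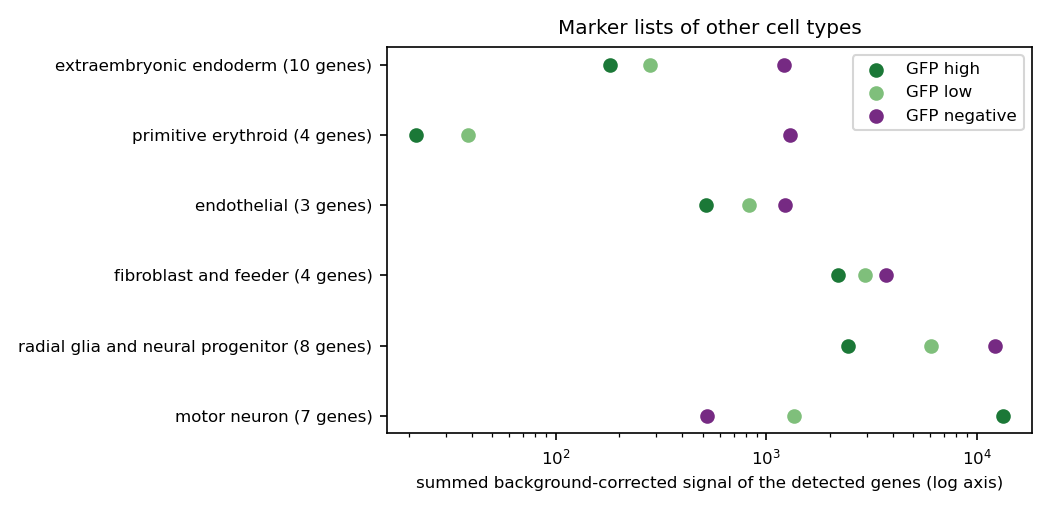
Summed background-corrected signal, on a log axis, of the detected genes of 6 marker lists on the GFP high, GFP low and GFP negative arrays. The extraembryonic endoderm list (181, 282 and 1213) and the primitive erythroid list (21.8, 38.3 and 1296) place GFP low cells nearer to GFP high than to GFP negative cells on this axis. On a linear scale the radial glia and neural progenitor list (2443, 6062 and 12158) and the endothelial list (518, 830 and 1229) do so too. The motor neuron list is instead highest in GFP high and lowest in GFP negative cells. Each sum weighs its brightest genes most.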

How the data were processed

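Sorted GFP high, GFP low and GFP negative cells were measured on 1 Illumina bead array each, from 400 ng of RNA, amplified before hybridisation, per the labels. The authors deposited a non-normalized intensity per probe, per the file headers, with no background subtracted, and beside it a detection p-value in steps of 1 in 798. A second deposited table holds processed intensity by the authors on a linear scale, never below 10; how it was background-corrected and scaled is not stated in the labels or headers. Its medians were 12.6, 12.5 and 12.5 in GFP high, GFP low and GFP negative cells, and over 5310 probes above 300 on all arrays its log2 deviations from the mean of the arrays had a Pearson correlation with those of the non-normalized table of 0.994, 0.991 and 0.994, across probes of 1 array each. GenomeStudio is named per the submitters' processing notes. Here the non-normalized intensities were background-corrected by normexp, using the detection p-values, and raised by an offset of 16 before quantile normalization and log2 transformation (limma 3.58.1, R 4.3.3; Python 3.11.15, numpy 2.4.6, pandas 2.3.3). The offset understates folds of dim genes. The steps were tested on simulated data with known folds set only in brighter probes, so the test does not cover the dimmer members.

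The platform annotation gave 1 symbol for 23978 probes, several for 0 and none for 1719; 23962 were matched by gene ID to RefSeq, where 0 differed. Differences were counted at 2-fold among genes detected (p-value under 0.01) on either array compared. Values are named for members at least 2-fold apart between any 2 arrays, the 10 brightest detected on all arrays and under 2-fold apart, and the 3 nearest 2-fold on each side; Dag1, Lrp4 and the remaining detected members were named after their values were seen, as were some marker genes. The members and lists were chosen with earlier results of these data known. The number of arrays limits the precision. Alternatives were another offset, no normexp, no quantile step, the value table, other detection rules, bounds and the mean of a gene's probes.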

Additional observations from a re-analysis of the deposited data

How the results depend on the processing

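No paired analysis was possible because each group has 1 array, and for the same reason no replicate could be left out. Of the differences of collagen, laminin, integrin and other member genes, 35 were at least 2-fold, and those that an alternative could give kept their direction under each alternative run. The pathway genes, markers and set-aside genes named with values were not run under the alternatives. Of these 35, 23 stayed at least 2-fold with an offset of 50, 19 without normexp, 34 without quantile normalization, 32 with undetected genes at their bound and 29 when probes of a gene were averaged. For GFP high against GFP negative cells, the count of genes at least 2-fold lower was 11 with an offset of 50, 9 without normexp and 9 over genes detected on both arrays, against 17. The count at least 2-fold higher, Col24a1 alone, was 0 with an offset of 50, without normexp, over genes detected on both arrays, with bounds and with the mean of the probes. The median log2 difference of -1.15 was -0.64 with an offset of 50, -0.43 without normexp, -1.73 in the authors' value table, -0.53 with a detection p-value under 0.05 and -0.099 with undetected genes kept in. For GFP high against GFP low cells, the count lower was 2 without normexp and 12 in the value table, against 6. Over all genes the share lower was 1.72% without normexp and 7.08% in the value table, against 4.17%. The members' median of -0.49 was -0.20 without normexp and -0.081 with undetected genes kept in. For GFP low against GFP negative cells, the value table gave 17 lower and 1 higher, against 11 and 0. Over all genes it gave 6.36% lower and 5.99% higher, against 2.68% and 3.37%. The members' median of -0.69 was -0.27 without normexp, -1.07 in the value table and -0.038 with undetected genes kept in. Normexp and the offset act by construction on dim probes, so the counts of dim genes are least secure. Over those alternatives Col4a1 ranged from -5.75 to -3.53, Sparc from -4.98 to -3.72 and Lamc1 from -2.34 to -2.04 for GFP high against GFP negative cells. Over all 8613 genes the higher and lower counts of 602 and 851 became 356 and 567 with an offset of 50, 258 and 437 without normexp and 903 and 1187 in the value table. Quantile normalization moved the median of all genes by less than 0.1.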

Other observations

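Genes named after integrins and Sparc that are no matrix or integrin chains were set aside and are given here as values. Itgb1bp1, which encodes a cytoplasmic binding partner of the beta 1 tail, had a log2 signal of 9.07 in the GFP high cells, 9.10 in GFP low cells and 9.40 in GFP negative cells and was 1.26-fold lower in GFP high cells relative to GFP negative cells. Itgb3bp, which encodes the centromere protein CENP-R, had 8.80 in GFP high cells, 9.22 in GFP low cells and 9.88 in GFP negative cells by its detected probe and was 2.11-fold lower in GFP high cells relative to GFP negative cells. Itgb1bp2 and Sparcl1, a relative of Sparc, were not detected on any array.

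Within each pair of neighbouring type IV collagen genes the detected chains did not always come together. Both Col4a1 and Col4a2 were detected, Col4a5 was detected without Col4a6, and neither Col4a3 nor Col4a4 was. Each of Col4a1, Col4a2 and Col4a5 was measured by 1 probe.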
